A study of Homo sapiens with 8 samples.

Results

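The core factors of nonsense-mediated mRNA decay (NMD) were examined as 9 genes, UPF1, UPF2, UPF3A, UPF3B, SMG1, SMG5, SMG6, SMG8 and SMG9. They were chosen by name, as the genes to which GENCODE version 44 assigns a transcript of the count table. This gave 9 of the 62639 genes and 96 of the 254070 transcripts in the table. A count in any library was present for 8 of the 9 genes and 22 of the 96 transcripts, with 2910 counts in all. The libraries came from MOLM-13, a human acute myeloid leukemia cell line transduced with a lentiviral construct that expresses an shRNA together with the surface marker ΔLNGFR once doxycycline (dox) is added, and mCherry at all times. In 4 libraries the shRNA was directed against PTBP1 (shPTBP1), and in 4 it was a scrambled sequence (shSCR). All 8 cultures received dox for 9 days, so that the controls also carried the induced marker and the drug. Each arm had a single shRNA, so the loss of PTBP1 and any other difference between the transduced cells cannot be told apart. RNA was read as cDNA in long reads on a nanopore instrument, and the counts refer to annotated isoforms. Whether the reads spanned whole isoforms was not tested.

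NMD removes mRNAs on which translation ends too early. In the usual scheme, the helicase UPF1 is recruited to the terminating ribosome, UPF2 and a UPF3 protein link it to exon junction complexes left downstream of the stop codon, the kinase SMG1 with its partners SMG8 and SMG9 phosphorylates UPF1, and SMG5 and SMG6 then bring about cleavage or decay. PTBP1 is a pyrimidine-binding splicing repressor that touches this pathway in more than one way: exon skipping that it promotes in PTBP2 yields an mRNA degraded by NMD, and its binding near stop codons is known to shield some mRNAs from UPF1.

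The libraries held between 1528449 and 1613342 counts, so that 1 count corresponded to between 0.620 and 0.654 counts per 1000000 (CPM). PTBP1 itself, the target of the knockdown, had 65, 90, 64 and 78 counts in shSCR replicates 1 to 4 and 10, 15, 13 and 23 in shPTBP1, without overlap (log2 fold change -2.26 ± 0.22 (SE), edgeR adjusted p = 7.18e-05). Of 8 myeloid markers, 6 were counted in every library, while SPI1 and CD14 had 1 count each over all libraries. Of 8 markers of other lineages, CD3E, MS4A1 and HBB were among those with no count, and COL1A1 was the highest with 17 counts in all. The measurement was in bulk, where fewer cells of a type and less RNA per cell cannot be told apart.

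None of the 7 NMD factors with enough counts to be tested passed an adjusted p of 0.05 in either direction. Over all 7597 genes tested with edgeR, 3.19% were called lower and 2.36% higher in shPTBP1. None of the 7 reached an unadjusted p of 0.05 in edgeR, in DESeq2 or in limma-voom, and the smallest edgeR adjusted p was 0.348, for UPF3A. The fitted log2 fold change was below 0 for 6 of the 7 and lay between -0.30 and 0.0034, with a median of -0.21, against a median of -0.00014 over all genes tested. The groups overlapped for every one of the 7, while 12.7% of all genes tested had groups that did not overlap.

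**Figure D1:**
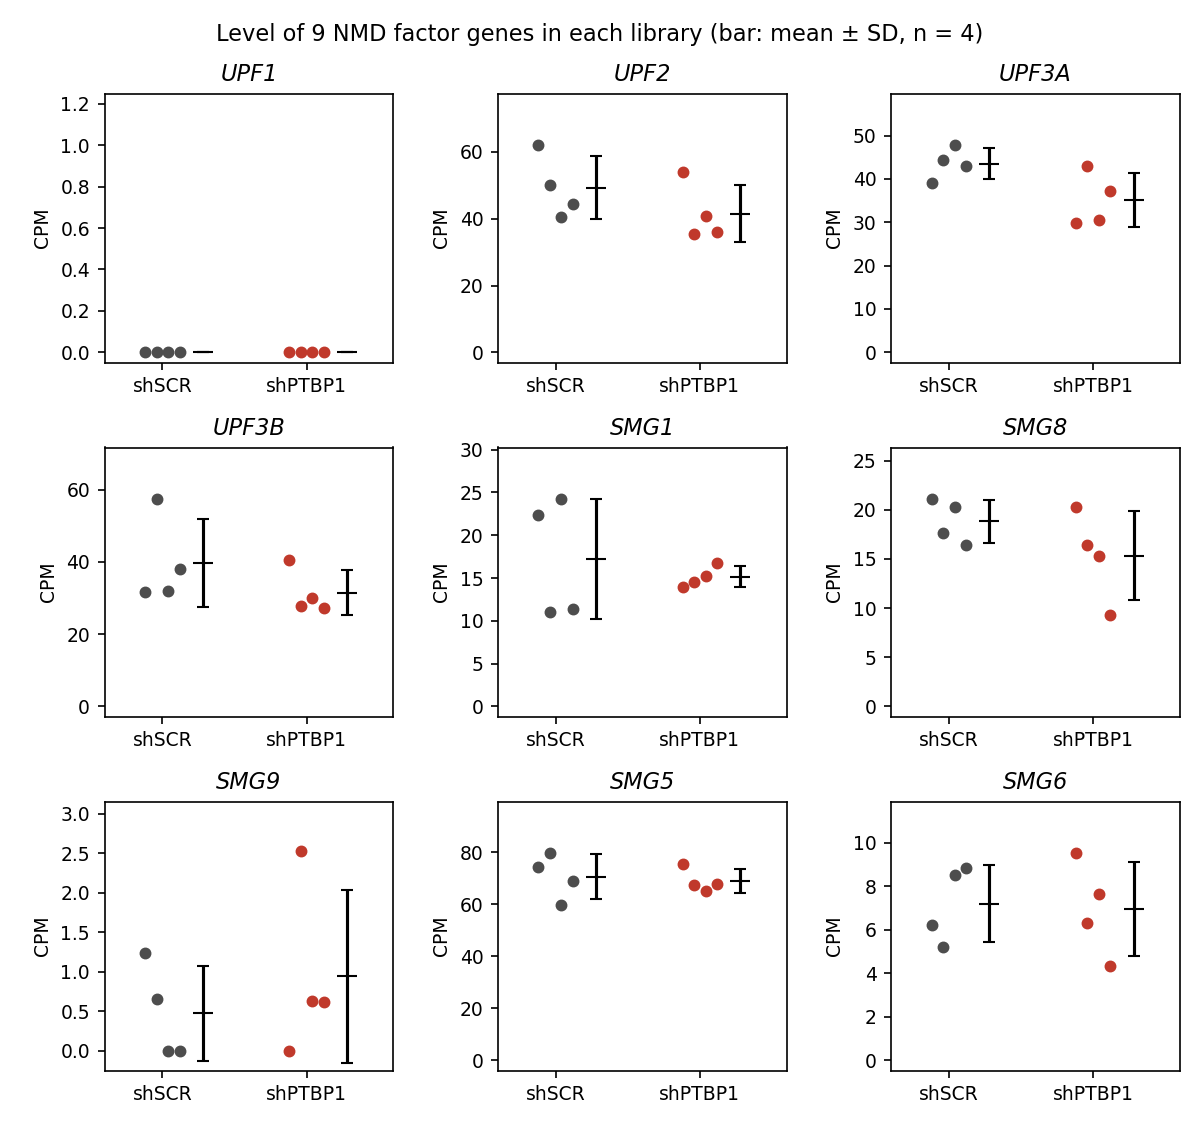
CPM (vertical axis, own linear scale for each gene) of the 9 NMD factor genes in the 4 shSCR and 4 shPTBP1 libraries, with 1 point for each library and the mean ± SD beside it. The groups overlap in every panel, UPF1 is at 0 in all 8 libraries, and SMG9 is at 4 counts or fewer.

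UPF1 (ENSG00000005007, GRCh38 chr19:18831959-18868230, plus strand), the ATP-dependent helicase on which the whole pathway turns, had 0 counts in all 8 libraries on its 17 annotated transcripts. Counts of 0 over all libraries together allow a level of up to 0.238 CPM (3 counts). Such a 0 does not by itself give the level of a gene in this table. SPI1, a defining transcription factor of myeloid cells, had 1 count over all 8 libraries in the same table. The UPF1 exon with 2 alternative 5′ splice sites 33 bases apart, which lengthens the regulatory loop of the helicase domain, was found in the annotation, but the share of the long-loop form could not be given, since neither form had a count.

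UPF2 (ENSG00000151461, chr10:11920022-12043170, minus strand), the adaptor between UPF1 and the UPF3 proteins, had 85, 56, 64 and 58 counts in shPTBP1 replicates 1 to 4 and 100, 77, 62 and 70 in shSCR. The ranges overlapped, with shSCR replicates 2, 3 and 4 inside the shPTBP1 range. The mean level was 41.5 ± 8.62 CPM in shPTBP1 and 49.3 ± 9.36 in shSCR (SD, n = 4 each), and the log2 fold change was -0.21 (95% interval -0.55 to 0.13, edgeR adjusted p = 0.511). Most of its counts were on UPF2-202, the 22-exon coding isoform, with 68, 54, 49 and 55 counts in shPTBP1 and 88, 73, 52 and 69 in shSCR. Its level also overlapped between the groups (log2 fold change -0.31, edgeR adjusted p over all transcripts = 0.299). UPF2-204, a 2-exon transcript of 640 bases without an annotated coding sequence, was the only other UPF2 isoform with a mean of 3 counts or more. It was counted 14, 0, 14 and 0 times in shPTBP1 and 10, 0, 7 and 0 times in shSCR. It was thus seen in replicates 1 and 3 of both groups and in neither of the other pair, and where it was seen it made up between 10% and 21.9% of the counts of the gene. Its share did not separate the groups (9.59% ± 11.3 against 5.32% ± 6.17, SD, n = 4 each; exact two-sided permutation p = 0.543). Without UPF2-204, the UPF2 level was 37.1 ± 5.62 CPM in shPTBP1 and 46.6 ± 8.47 in shSCR (exact two-sided permutation p = 0.171, n = 4 each).

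UPF3A and UPF3B encode paralogous proteins that tie UPF2 to the exon junction complex. UPF3B is held to be the more active in NMD, while UPF3A has been described both as a weak activator and as an inhibitor. The 2 genes kept a like exon order. In the main isoforms UPF3A-202 and UPF3B-202, both of 10 exons, the exons of 107, 107, 99, 111, 161 and 295 bases recurred at the same places, while exons 6 and 7 had 56 and 159 bases in UPF3A and 44 and 183 in UPF3B. Exon 4, of 99 bases, is part of the sequence for the UPF2-binding domain. It is a cassette in UPF3A, included in UPF3A-202 and skipped in UPF3A-201 without a shift of the reading frame, and it was present in both counted isoforms of UPF3B. These exons are shown because the isoform results turn on them, together with the UPF3B cassette exon of 39 bases. They are coding exons on GRCh38 at chr13:114286302-114286400 (plus strand) in UPF3A, and at chrX:119845198-119845296 and chrX:119840646-119840684 (minus strand) in UPF3B, written 5′ to 3′.
UPF3A exon 4: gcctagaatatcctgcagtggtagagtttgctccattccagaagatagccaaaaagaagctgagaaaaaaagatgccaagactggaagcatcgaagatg
UPF3B exon 4: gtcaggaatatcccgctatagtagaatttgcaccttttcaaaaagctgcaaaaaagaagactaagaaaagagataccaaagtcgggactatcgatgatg
UPF3B cassette exon: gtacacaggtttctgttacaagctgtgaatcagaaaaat
Aligned without gaps, UPF3A exon 4 and UPF3B exon 4 shared 67 of 99 bases (67.7%).

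The 100 intronic bases before each of these exons are shown next, since PTBP1 binds pyrimidine-rich RNA, often with the letters TCTT or CTCTCT, before exons that it represses. They are chr13:114286202-114286301 (plus strand) for UPF3A, and chrX:119845297-119845396 and chrX:119840685-119840784 (minus strand) for exon 4 and the cassette exon of UPF3B. Capitals mark TCTT on the transcribed strand, the only one searched. None of the windows held CTCTCT.
Before UPF3A exon 4: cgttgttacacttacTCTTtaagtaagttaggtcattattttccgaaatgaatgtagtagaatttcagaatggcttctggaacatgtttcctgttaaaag
Before UPF3B exon 4: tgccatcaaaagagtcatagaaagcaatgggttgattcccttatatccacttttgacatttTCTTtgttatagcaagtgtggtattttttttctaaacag
Before the UPF3B cassette exon: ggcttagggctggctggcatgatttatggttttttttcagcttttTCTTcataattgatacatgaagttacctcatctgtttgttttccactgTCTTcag
TCTT occurred 1 time, 1 time and 2 times in them. It was present in 64.5% of 75647 windows of the same length before internal exons of coding transcripts in genes with a mean of 10 counts or more, and CTCTCT in 7.57%. Among these windows, 29.7% held TCTT at least 2 times. The share of pyrimidines in the 50 bases next to the exon was 46.0% for the UPF3A exon and 62.0% for each of the UPF3B exons. These matches are letters in a window, and binding was not measured here.

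UPF3A (ENSG00000169062, chr13:114281601-114305817, plus strand) had 47, 68, 48 and 60 counts in shPTBP1 replicates 1 to 4 and 63, 68, 73 and 68 in shSCR. In shPTBP1, replicates 1, 3 and 4 lay below all shSCR libraries, and replicate 2 lay among them. The log2 fold change was -0.27 (95% interval -0.58 to 0.05, edgeR adjusted p = 0.348). The isoform with exon 4, UPF3A-202, had 27, 30, 23 and 26 counts in shPTBP1 and 40, 38, 38 and 41 in shSCR. Every shPTBP1 library lay below every shSCR library. Of 8 member transcripts tested it was the only one without overlap, against 13.1% of all transcripts tested. Its log2 fold change was -0.55 ± 0.16 (SE) with an edgeR adjusted p of 0.0603 over all transcripts, so that it was not called. No member transcript was called at this threshold, against 5.45% of the 10207 transcripts tested. With the alternatives tried, the adjusted p for UPF3A-202 lay between 0.0651 and 0.221. The isoform that skips the exon, UPF3A-201, had 15, 27, 14 and 21 counts in shPTBP1 and 13, 24, 23 and 15 in shSCR, with overlap and a log2 fold change of 0.05 (95% interval -0.56 to 0.66). UPF3A-209, a short 2-exon coding transcript of 494 bases, had 1, 6, 4 and 10 counts in shPTBP1 and 3, 4, 5 and 4 in shSCR, again with overlap.

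Among UPF3A counts on isoforms that span exon 4, 66.7%, 55%, 64.1% and 57.1% included it in shPTBP1 replicates 1 to 4, and 76.8%, 62.5%, 64.1% and 74.6% in shSCR. The groups overlapped, with 2 shSCR libraries inside the shPTBP1 range. The means were 60.7% ± 5.55 and 69.5% ± 7.24 (SD, n = 4 each), a difference of -8.75 percentage points (exact two-sided permutation p = 0.171, 0.5 after adjustment over 10 isoform and exon shares of the members). Between 39 and 64 counts stood behind each of these values, and the exact binomial intervals of the pooled shares, 52.8% to 67.1% and 62.9% to 74.9%, overlapped. These intervals cover counting error only. In the test of isoform usage, UPF3A-201 and UPF3A-202 were the only member isoforms that could be tested, and neither was called (edgeR adjusted p = 1.00 for both), against 1.12% of the 5464 isoforms tested.

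UPF3B (ENSG00000125351, chrX:119834022-119852998, minus strand) had 64, 44, 47 and 44 counts in shPTBP1 and 51, 88, 49 and 60 in shSCR. Here 3 shPTBP1 libraries lay below all shSCR libraries, while shPTBP1 replicate 1 lay above 3 of them. The log2 fold change was -0.30 (95% interval -0.72 to 0.12, edgeR adjusted p = 0.440). Nearly all counts were on UPF3B-202. UPF3B-201, which adds the 39-base exon in phase, had 0 of 199 counts in shPTBP1, which allows a share of up to 1.51%, and 6 of 248 in shSCR, in which replicates 1 to 4 held 3, 1, 1 and 1. The shares were 0% and 2.68% ± 2.17 (SD, n = 4 each; exact two-sided permutation p = 0.0286, the smallest that 4 against 4 can give, and 0.286 after adjustment over the 10 shares). This difference rested on 6 counts.

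**Figure D2:**
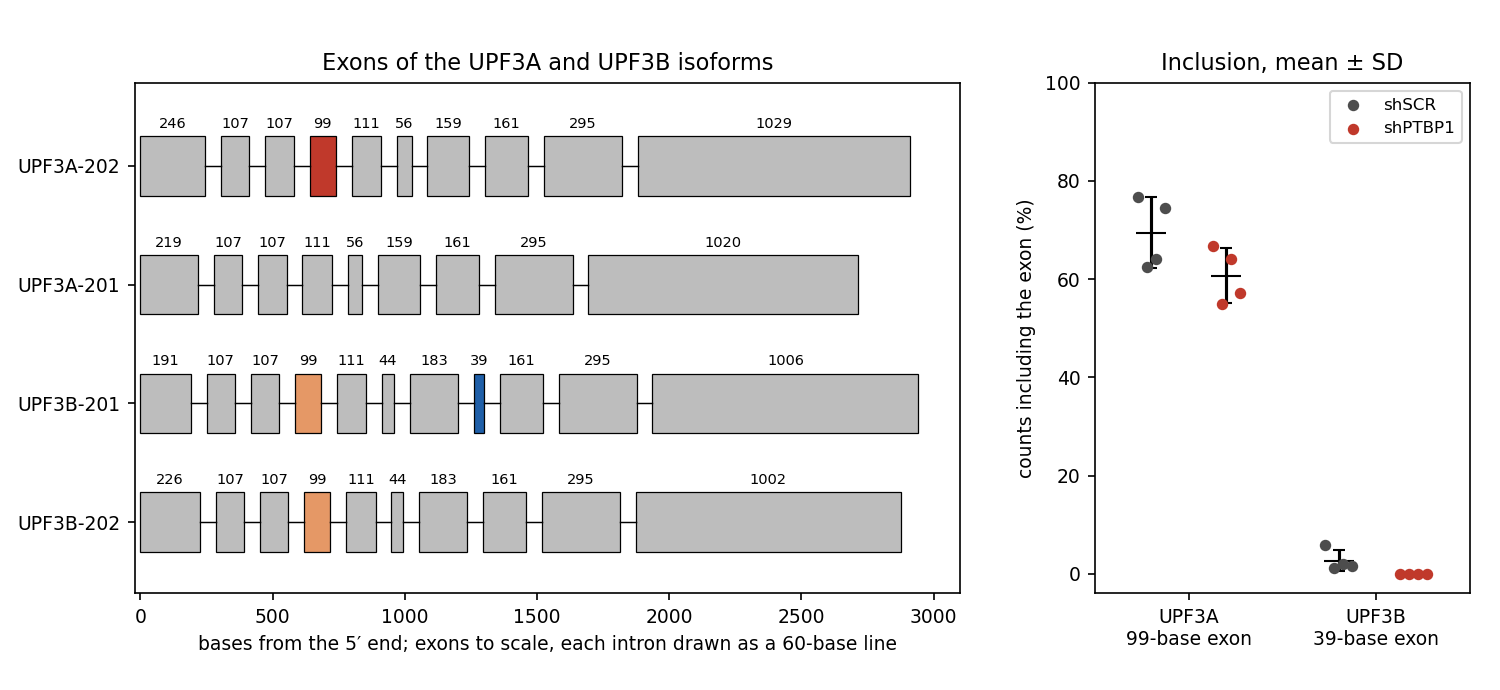
Left, exons of UPF3A-202, UPF3A-201, UPF3B-201 and UPF3B-202 from the 5′ end, drawn to scale in bases with introns shortened to a fixed line, and with the length above each exon. Colours mark UPF3A exon 4 (red), the same exon of UPF3B (orange) and the UPF3B 39-base exon (blue). Right, percent of counts that include an exon in each library with mean ± SD (n = 4), which was 60.7% in shPTBP1 and 69.5% in shSCR for UPF3A, and 0% and 2.68% for UPF3B.

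**Figure D3:**
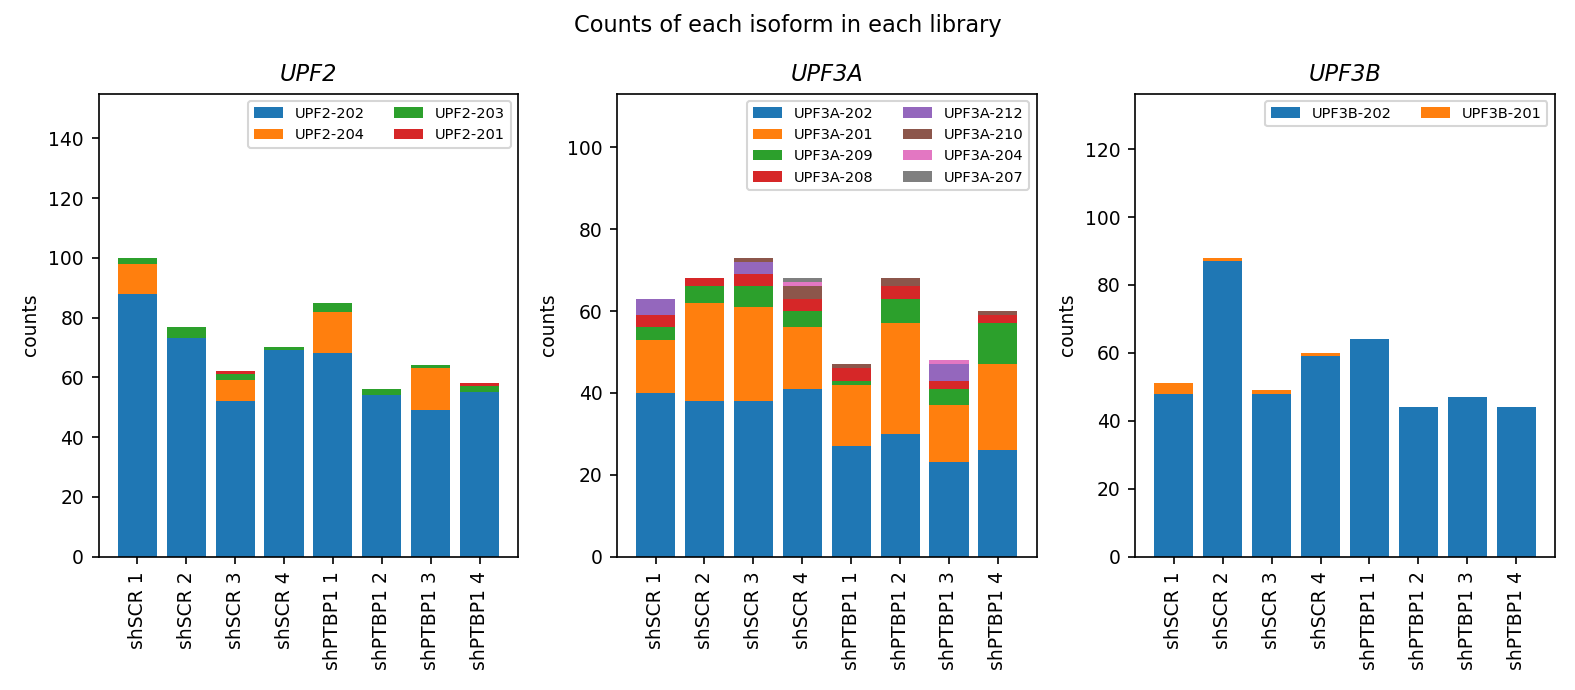
Counts (vertical axis) of each annotated isoform of UPF2, UPF3A and UPF3B, stacked, in each of the 8 libraries. UPF2-204 is seen in replicates 1 and 3 of both groups, UPF3A-202 is lower in each shPTBP1 library than in any shSCR library, and UPF3B-201 is seen in shSCR alone, with 6 counts.

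SMG1 (ENSG00000157106, chr16:18804860-18926408, minus strand), the kinase that phosphorylates UPF1, had 22, 23, 24 and 27 counts in shPTBP1 replicates 1 to 4 and 36, 17, 37 and 18 in shSCR. All 4 shPTBP1 values lay between the low and the high pair of the shSCR libraries. The log2 fold change was -0.15 (95% interval -0.72 to 0.42, edgeR adjusted p = 0.823). SMG1-201, with 63 exons and 16062 bases, held 182 of its 204 counts. The remaining 22 were on SMG1-210, which skips a 156-base exon. That exon was included in 88.3% ± 4.83 of the counts in shPTBP1 and 89.5% ± 1.5 in shSCR (SD, n = 4 each; exact two-sided permutation p = 0.714). SMG1 has pseudogene copies of near-identical sequence, of which SMG1P5 had 36 counts in all, with 1 to 9 in a library. These counts do not bound the error in the SMG1 values, since reads lost between the copies are not known.

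SMG8 (ENSG00000167447, chr17:59209400-59215239, plus strand), a subunit that restrains the SMG1 kinase, had 32, 26, 24 and 15 counts in shPTBP1 and 34, 27, 31 and 26 in shSCR. The ranges overlapped, with shPTBP1 replicate 4 the lowest of all 8. The log2 fold change was -0.26 (95% interval -0.74 to 0.22, edgeR adjusted p = 0.576). SMG8-202 held 95.9% ± 6.32 of its counts in shPTBP1 and 98.2% ± 2.06 in shSCR (SD, n = 4 each; exact two-sided permutation p = 0.886). SMG9 (ENSG00000105771, chr19:43727983-43754962, minus strand), the partner of SMG8 in the kinase complex, had 0, 4, 1 and 1 counts in shPTBP1 and 2, 1, 0 and 0 in shSCR, all on SMG9-201. It was below the limit for testing, and no fold change is given.

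SMG5 (ENSG00000198952, chr1:156249224-156282825, minus strand) binds phosphorylated UPF1 and leads to deadenylation and decapping. It was the member with the most counts, 119, 107, 102 and 109 in shPTBP1 and 120, 122, 91 and 109 in shSCR, all on SMG5-201. All shPTBP1 values lay within the shSCR range. With a log2 fold change of 0.0034 and a 95% interval of -0.21 to 0.22 (0.863-fold to 1.16-fold), it was also the member whose change was bounded most closely (edgeR adjusted p = 0.991). SMG6 (ENSG00000070366, chr17:2059839-2303785, minus strand), the endonuclease that cuts the target mRNA near the stop codon, had 15, 10, 12 and 7 counts in shPTBP1 and 10, 8, 13 and 14 in shSCR, all on SMG6-201. The ranges overlapped. Its log2 fold change was -0.016, and with so few counts the 95% interval ran from -0.73 to 0.69 (edgeR adjusted p = 0.987).

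In CPM in shSCR, SMG5 had a mean of 70.6, UPF2 49.3, UPF3A 43.5 and UPF3B 39.8. SMG8 had 18.9, SMG1 17.2, SMG6 7.19 and SMG9 0.473. Levels were also set side by side after division by isoform length, weighted by the counts of each isoform. With long reads of cDNA, a count need not grow with length, and the division by itself lowers long genes. On this scale, in CPM per kilobase in shSCR (mean ± SD, n = 4), UPF3A was highest with 20.8 ± 1.72, followed by UPF3B with 17.0 ± 5.18, SMG5 with 15.5 ± 1.88 and UPF2 with 10.2 ± 1.94. SMG8 had 5.45 ± 0.631, SMG6 1.20 ± 0.296, SMG1 1.10 ± 0.446 and SMG9 0.0861 ± 0.109. The libraries of UPF3A and UPF3B, of UPF3B and SMG5, and of SMG6 and SMG1 overlapped, so that the order within these pairs is not fixed, while the other neighbours did not overlap. The main isoforms of the 7 tested members had a median length of 4559 bases (range 2335 to 16062), against 2646 over 6816 genes with a mean of 10 counts or more and a coding main isoform. The median number of exons was 19 against 9, and that of the 3′ UTR length 1279 against 903.5 bases. SMG1, the longest member, was among those with the lowest levels per kilobase, while in CPM it lay near SMG8 and above SMG6. The order thus depends on the scale, and the part of length in it was not tested.

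Some NMD factor genes have isoforms that the annotation marks as NMD targets themselves or as intron-retaining. None of the 2910 member counts fell on the 5 member transcripts typed as nonsense-mediated decay. UPF2, UPF3A, UPF3B, SMG5 and SMG6 have no transcript of this type, so their 0 was fixed by the annotation. UPF1 has 2 but had no count, and SMG1, SMG8 and SMG9 have 1 each. The 0 of 204 counts for SMG1, 215 for SMG8 and 9 for SMG9 allowed shares of this type of up to 1.47%, 1.40% and 33.3%. Of all counts of the 8 libraries, 3.22% were on this type, with 3.19% ± 0.0499 in shPTBP1 and 3.25% ± 0.0217 in shSCR (SD, n = 4 each). Only 1 of the 23 retained-intron transcripts of the members had counts, UPF3A-212, with 0, 0, 4 and 0 in shPTBP1 and 4, 0, 3 and 0 in shSCR. Its share of UPF3A counts was 2.08% ± 4.17 and 2.61% ± 3.15 (SD, n = 4 each; exact two-sided permutation p = 1). Over all members retained introns made up 0.378% of the counts, against 1.34% in the whole table. UPF2 and SMG8 have no annotated transcript of this type.

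The other genes of the pathway were read from a list of 38, covering translation termination and cap-binding partners, the exon junction complex and decay enzymes. All 38 had counts and 36 were tested, of which 1 was called lower and 2 higher, with a median log2 fold change of -0.024. Over all genes tested, 3.19% were called lower and 2.36% higher, and calls as few as these are not read as a result about the list. PPP2CA, the catalytic subunit of the phosphatase PP2A that removes phosphate from UPF1, had 119, 131, 132 and 211 counts in shPTBP1 and 240, 231, 198 and 240 in shSCR. It fell (log2 fold change -0.60 ± 0.14 (SE), edgeR adjusted p = 0.0299), although shPTBP1 replicate 4 lay within the shSCR range. PABPC1, the main cytoplasmic poly(A)-binding protein, which counters NMD near the stop codon, had 2880, 2804, 2519 and 2767 counts in shPTBP1 and 2684, 2346, 2049 and 2380 in shSCR. It rose slightly (log2 fold change 0.23 ± 0.06 (SE), edgeR adjusted p = 0.0475), and the groups did not overlap once scaled to library size by TMM, though in CPM by library total they did. PNRC2, which links phosphorylated UPF1 to decapping, had 859, 833, 856 and 906 counts in shPTBP1 and 767, 800, 714 and 750 in shSCR, without overlap (log2 fold change 0.21 ± 0.06 (SE), edgeR adjusted p = 0.0480). All 3 calls were lost in most of the fits that left out 1 library. PPP2CA lost its call in 6 of 8 (kept without shPTBP1 replicate 4 or shSCR replicate 3), with adjusted p between 0.000882 and 0.108. PABPC1 lost it in 7 of 8 (kept without shSCR replicate 1; 0.0327 to 0.133), and PNRC2 in 6 of 8 (kept without shPTBP1 replicate 1 or shSCR replicate 2; 0.0373 to 0.135).

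A list of 30 genes with RNAs known as NMD-sensitive was read beside the factors. It was written from general knowledge, many of its genes also respond to stress or to other splicing factors, and PTBP2 was already known to rise in these data, so that it does not measure the activity of the pathway. Of the 26 tested, 4 were called higher and 1 lower, against 2.36% and 3.19% of all genes tested. Of the 26 log2 fold changes, 10 (38.5%) were below 0, against 50.05% over all genes tested, and their median was 0.13. PTBP2, the neuronal paralog of PTBP1, had 194, 199, 190 and 185 counts in shPTBP1 and 1, 2, 2 and 4 in shSCR (log2 fold change 6.36 ± 0.19 (SE), edgeR adjusted p = 2.14e-10). The host gene of small nucleolar RNAs SNHG15 had 208, 229, 246 and 213 counts against 163, 147, 142 and 191, without overlap (log2 fold change 0.50 ± 0.10 (SE), edgeR adjusted p = 0.0142). EPB41L4A-AS1, a noncoding RNA, had 317, 327, 305 and 307 counts against 282, 219, 233 and 260, also without overlap (log2 fold change 0.36 ± 0.08 (SE), edgeR adjusted p = 0.0197).

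TRA2B, a splicing factor which limits its own mRNA through an exon with stop codons, had 126, 173, 153 and 137 counts in shPTBP1 and 96, 88, 111 and 110 in shSCR (log2 fold change 0.56 ± 0.13 (SE), edgeR adjusted p = 0.0242). SRSF2, a splicing factor which also controls its own mRNA by NMD-sensitive splicing, had 29, 21, 53 and 54 counts in shPTBP1 and 72, 137, 79 and 138 in shSCR, and fell (log2 fold change -1.42 ± 0.28 (SE), edgeR adjusted p = 0.0127). The groups did not overlap for either gene. PTBP2 and SRSF2 kept their calls whichever library was left out, with adjusted p of at most 1.27e-08 and 0.0441. SNHG15 lost its call without shPTBP1 replicate 2 (adjusted p = 0.0506) or 3 (0.0570), with a range over the 8 fits of 0.00700 to 0.0570. EPB41L4A-AS1 lost it without shPTBP1 replicate 2 (0.0718) or 3 (0.0567) or shSCR replicate 3 (0.0530), with a range of 0.0197 to 0.0718. TRA2B lost it without shPTBP1 replicate 2 (0.0822) or 3 (0.0812) or shSCR replicate 1 (0.0606) or 2 (0.0659), with a range of 0.0197 to 0.0822.

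**Figure D4:**
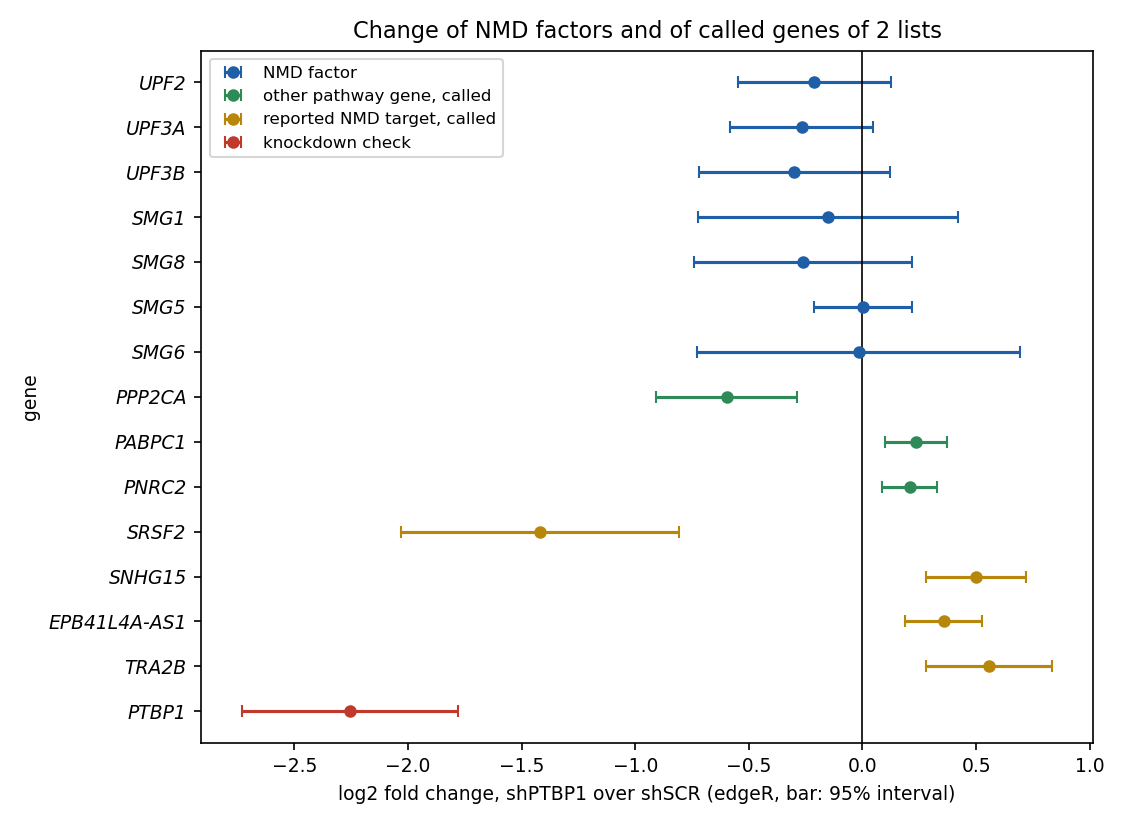
Log2 fold change of shPTBP1 over shSCR from edgeR with a 95% interval (horizontal axis) for the 7 tested NMD factors, the called genes of both lists and PTBP1. The intervals were calculated from the F statistic of the test. PTBP2, at 6.36, is left out for scale. The intervals of all 7 factors include 0, between -0.30 for UPF3B and 0.0034 for SMG5, while PTBP1 lies at -2.26 and SRSF2 at -1.42.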

How the data were processed

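RNA of 8 MOLM-13 cultures (4 shPTBP1, 4 shSCR) was sequenced as nanopore cDNA. After alignment with minimap2 (hg38) and a filter on mapping quality, the authors deposited a whole-number count for each transcript and library from StringTie. Versions and annotation are not given in the sources used here. The table the authors deposited under the name TPM holds CPM, the count divided by the library total per 1000000, without length (largest difference 4.998e-07). Groups and replicate numbers came from the labels, which call the samples biological replicates.

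Transcripts were assigned to genes by identifier in GENCODE version 44 (252562 of 254070 matched), and counts were summed per gene. Genes, transcripts and isoform usage were tested over the whole table with edgeR 4.0.16 (TMM, filterByExpr, quasi-likelihood test, diffSpliceDGE), with Benjamini-Hochberg adjustment and a threshold of 0.05; usage also needed a change of 10 percentage points. Tools were R 4.3.3, limma 3.58.1, DESeq2 1.42.0 and Python 3.11.15. The edgeR tests of genes and of isoform usage and the exact test were tested on simulated data. Shares were compared by exact permutation over the 8 libraries. Sequences and windows were read from GRCh38.

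The members, lists and tests were chosen with earlier results of these data known. The genes named were all 9 members, their isoforms with a mean of 3 counts or more or tested for usage, and of the lists the called genes or at least 3. UPF3B-201, UPF3A-212, SMG1-210 and SMG9-201 were named beyond this rule, after their values were seen. The exact binomial intervals of shares and the limits for 0 counts (3 counts) cover counting error only. The intervals of the fold changes were calculated from the F statistic of the edgeR test and are not of this kind. The depth was 1528449 to 1613342 counts per library.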

Additional observations from a re-analysis of the deposited data

Results flagged for a closer look

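The share of UPF3A counts on the intron-retaining isoform UPF3A-212 was 8.33% in shPTBP1 replicate 3 (4 counts of 48) and 0% in the 3 other shPTBP1 libraries, a gap as wide as the whole range of the group. It was 6.35%, 0%, 4.11% and 0% in shSCR replicates 1 to 4, so the value stands apart within its own group only. UPF2-204 was seen in replicates 1 and 3 alone in both groups. UPF3A-212 was seen in these replicates of shSCR, but only in replicate 3 of shPTBP1. In all, 38 groups of 4 values were examined in this way. For normally distributed values, chance flags about 1 group in 20. That rate does not hold here, since a group with counts in a single library is always flagged. Groups with 4 equal values, which are among the 38, cannot be flagged.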

How the results depend on the processing

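No member was called in either direction under any alternative: DESeq2, limma-voom, DESeq2 size factors, no filter, a minimum mean of 50 counts, limma-trend for log2(CPM + 1), thinning, the replicate block, and leaving out each library. No member isoform or transcript was called under those tried for them either. The minimum mean of 50 counts left only UPF2, UPF3A, UPF3B and SMG5 among the members tested. DESeq2 gave SMG6 no adjusted p, so these settings could not have called the members left out. Of the factors with log2 fold changes near 0, SMG5 turned to -0.015 with a minimum mean of 50 counts, -0.029 with limma-trend, and between -0.061 and 0.054 when a library was left out; SMG6 to 0.10 after thinning and between -0.19 and 0.15; and SMG1 between -0.32 and 0.062. UPF2, UPF3A, UPF3B and SMG8 kept their sign. The pathway genes called higher numbered 1 without the filter, with that minimum mean and with the replicate block, 0 with limma-trend and after thinning, and between 0 and 1 when a library was left out; those called lower numbered between 0 and 1. The targets called higher numbered between 1 and 5 when a library was left out.

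The replicate block left 0 members called and changed the all-gene calls from 242 lower and 179 higher to 186 and 137 (DESeq2: 157 and 157; limma-voom: 220 and 156); PNRC2 lost its call (adjusted p = 0.0858). The replicate numbers were not treated as pairs: same-numbered libraries of the groups had correlations across genes of -0.0328 to 0.00889 after the group means were removed, and 0 of the 8 libraries correlated best with the library of their own number. The retained-intron difference of UPF3A, -0.53 percentage points, lay between -2.61 and 0.71 when a library was left out. The difference for the UPF3A exon 4 lay between -11.1 and -6.32, and that for the UPF3B 39-base exon, an alternative added after the data were seen, between -3.20 and -1.61, where 3 against 4 libraries cannot give an exact p below 0.0571. The 95% intervals of UPF3B, SMG1, SMG6 and SMG8 reached down to 0.608-, 0.605-, 0.604- and 0.598-fold, with the parts of depth and replicate spread not tested, and UPF1 and SMG9 could not be tested at this depth.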
